A study of Homo sapiens with 21 samples.

Results

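RNA levels of 10 genes that encode the collagens, nidogens and perlecan of the basement membrane were followed through a TGFβ time course. The genes were chosen by symbol, with earlier results of these data known, out of 23201 gene symbols listed. Their counts beside those of all genes are therefore descriptions. The genes are COL4A1, COL4A2, COL4A5, COL4A6, COL7A1, COL17A1, COL18A1, NID1, NID2 and HSPG2. The cells were HMLE, human mammary epithelial cells immortalized with telomerase and a viral antigen, in an untreated group (d0) and in groups treated with TGFβ for 1, 4, 7, 10, 15 or 20 days (d1 to d20), with 3 libraries in each of the 7 groups and the same seeding density throughout. The labels give no TGFβ dose and no untreated cells kept for the later days, so time in culture and treatment cannot be told apart. Values are normalized read counts, that is, the reads of a gene divided by a size factor of the library. A gene was tested where its mean over the 21 libraries was at least 10, which 9 of the 10 genes passed. NID1, with a mean of 11.01, lay just inside this limit and NID2, with 9.37, just outside it.

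The 21 libraries held between 18847917 and 22667754 reads assigned to genes. The third d7 library stood apart. Over the 13343 genes tested it differed from the other d7 libraries by a root-mean-square of 0.472 and 0.457 on the log2 scale, against 0.214 to 0.242 for every other pair of libraries of the same day. It lay as near to the mean of d4 (0.427) or of d20 (0.431) as to the mean of the other d7 libraries (0.451), so log2 changes that involve d7 are also given without it where a single gene is described, and the steps of the whole set by their counts. The epithelial markers KRT5, KRT14, TP63, CDH3, EPCAM and CDH1, not all of them particular to basal cells, were present in every library. The means of 5 of these 6 lay above d0 at d7, and 5 lay below it at d20, where EPCAM was at 402 against 2106 and KRT14, the exception, at 91697 against 72774. The d7 means include the third d7 library. The sum of the 6 ran from 289428 to 526002 over the d7 libraries, against 309197 to 329596 at d0. Of the markers of other cell types, 3 of 6 luminal (PGR, ELF5 and KIT), 1 of 5 endothelial (CDH5), 3 of 5 haematopoietic (PTPRC, CD53 and CD3E) and 0 of 5 pericyte markers had at most 3 reads in every library.

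A basement membrane is the thin sheet of matrix on which epithelial cells rest. Collagen IV chains assemble in threes into molecules that form its network. The COL4A1 and COL4A2 chains assemble with each other in nearly all tissues, whereas the COL4A5 and COL4A6 chains assemble with each other in a smaller set of tissues. Laminins form a second network, and nidogens and perlecan, the product of HSPG2, tie both together. Collagen XVII, a transmembrane protein of the hemidesmosome, holds basal cells to the sheet, and collagen VII forms the fibrils that anchor the sheet to the tissue beneath. TGFβ is a cytokine known to induce matrix genes and, in epithelial cells, the epithelial to mesenchymal transition.

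The collagen IV genes studied here lie head to head in pairs, and the sequence between their starts is shown here because the members of each pair were then compared with each other. All sequences are from RefSeq, build GRCh38.p14, in which all 10 genes were found, with 12 promoter windows in all. COL4A1 and COL4A2 start 127 bases apart on chromosome 13 and are transcribed away from each other. The 126 bases between these RefSeq starts (chr13:110307158-110307283, plus strand) hold a GC box, GGGCGG, and a CCAAT box, both in capitals.
COL4A1 to COL4A2: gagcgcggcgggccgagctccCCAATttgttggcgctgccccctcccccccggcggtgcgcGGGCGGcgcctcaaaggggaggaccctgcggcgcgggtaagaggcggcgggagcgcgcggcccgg
COL4A5 and one of the COL4A6 starts lie 380 bases apart on chromosome X. The 250 bases before COL4A5 on the side toward COL4A6 (chrX:108439588-108439837, plus strand) hold 2 CCAAT boxes, in capitals, of which the second reads ATTGG on this strand, and no GC box.
COL4A5 upstream: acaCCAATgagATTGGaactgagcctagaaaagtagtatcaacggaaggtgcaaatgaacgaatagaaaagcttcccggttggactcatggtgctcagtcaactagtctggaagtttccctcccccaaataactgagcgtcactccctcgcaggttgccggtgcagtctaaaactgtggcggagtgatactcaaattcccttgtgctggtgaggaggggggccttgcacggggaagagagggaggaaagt
The anchoring genes COL7A1 and COL17A1, which were both higher on every treated day, are shown for comparison. The 250 bases upstream of COL7A1 (chr3:48595330-48595579, minus strand) hold 3 GC boxes and the SMAD element CAGACA, which reads TGTCTG here. The 250 bases upstream of COL17A1 (chr10:104085881-104086130, minus strand) hold 1 CCAAT box, read as ATTGG, and no GC box. The matches are in capitals.
COL7A1 upstream: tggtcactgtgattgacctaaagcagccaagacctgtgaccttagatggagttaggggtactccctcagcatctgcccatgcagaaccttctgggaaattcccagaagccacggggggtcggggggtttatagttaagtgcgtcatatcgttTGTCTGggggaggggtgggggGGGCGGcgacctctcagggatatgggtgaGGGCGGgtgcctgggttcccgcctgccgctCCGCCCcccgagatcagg
COL17A1 upstream: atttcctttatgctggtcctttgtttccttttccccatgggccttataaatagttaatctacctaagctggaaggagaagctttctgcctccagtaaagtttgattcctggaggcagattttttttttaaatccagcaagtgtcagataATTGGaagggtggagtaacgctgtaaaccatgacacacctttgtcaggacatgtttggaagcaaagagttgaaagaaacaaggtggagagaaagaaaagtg

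Over windows of 250 bases before to 50 bases after each start, searched on both strands, the GC box occurred in 9 of the 12 windows of these genes and in 44.95% of 35116 human promoters. CCAAT occurred in 7 of the 12 windows, against 34.61% of all promoters, and CAGACA in 3, against 16.88%. The windows of COL4A1 and COL4A2 share 226 bases and those of COL4A5 and COL4A6 share 121, so a match in the shared bases was counted in both windows. With overlapping windows joined, 10 regions remained, of which 8 held the GC box, 5 CCAAT and 3 CAGACA. The AP-1 site TGANTCA and the E-box CACCTG occurred in 0 of the 12 windows, against 7.709% and 20.59% of all promoters. These matches describe the letters of the windows and were not tested as sites.

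Against untreated cells, the 9 genes tested differed in the days on which they were called and in the direction of the calls. COL4A1, COL4A2, COL7A1 and COL17A1 were higher at all 6 treated timepoints. COL4A5, COL4A6 and HSPG2 were lower on some days and higher on others, COL18A1 was higher at d7 and d15 only, and NID1 was higher at d4, d7, d15 and d20. Calls used limma's adjusted p with a threshold of 0.05. At d1, 4 genes were higher and 3 lower, where 31.3% and 28.5% of all 13343 genes tested were called in those directions. At d4, 6 were higher and 1 lower (background 36.9% and 35.3%). At d7 all 9 tested were higher and 0 lower (34.6% and 32.6%), with counts of 9 and 0 also when the third d7 library was left out. On d10, 4 were higher and 3 lower (37% and 30.7%), on d15, 9 were higher and 0 lower (39.2% and 37.3%), and on d20, 5 were higher and 3 lower (32.5% and 30.2%). The counts of higher genes at d7, d15 and d20 include NID1, which passed the filter through its values on those days. The counts of 0 lower genes at d7 and d15 were also 0 at an unadjusted limma p under 0.05, with edgeR and with DESeq2. The median log2 fold change of the 9 genes was 0.57 at d1, 1.63 at d7, 1.27 at d15 and 0.44 at d20, beside medians over all genes tested of 0.00, 0.00, 0.01 and 0.00. Between neighbouring days most of the genes that passed the test moved one way. From d1 to d4, 5 rose and 0 fell (background 32.9% and 32%), and from d4 to d7, 5 rose and 0 fell (25.5% and 25.5%), which became 6 and 1 (COL4A2) without the third d7 library. From d7 to d10, 2 rose and 7 fell (36.2% and 35.2%), from d10 to d15, 8 rose and 0 fell (39.3% and 40.5%), and from d15 to d20, 1 rose and 6 fell (37.7% and 36.3%). NID1 is among the 7 that fell from d7 to d10 and the 8 that rose from d10 to d15. It is also among the 6 that rose from d4 to d7 without the third d7 library. These steps involve d7 or d15, through which NID1 passed the filter. At an unadjusted limma p under 0.05, 1 gene fell from d1 to d4 (COL4A1, also called by edgeR but not by DESeq2), 1 fell from d4 to d7 (COL7A1, called by neither) and 0 fell from d10 to d15 (0 with either tool). Under a required log2 change of at least 1 the d7 and d15 counts of higher genes became 5 and 5. Rescaling all libraries to the same total shifted the median of all genes against d0 by between -0.16 (d15) and -0.23 (d10) and the share of calls that were higher from between 51.1% and 54.6% to between 26.7% and 39.1%. It turned the sign of no member call against d0, and the COL18A1 values that were not called at d1, d4, d10 and d20 became negative.

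**Figure D1:**
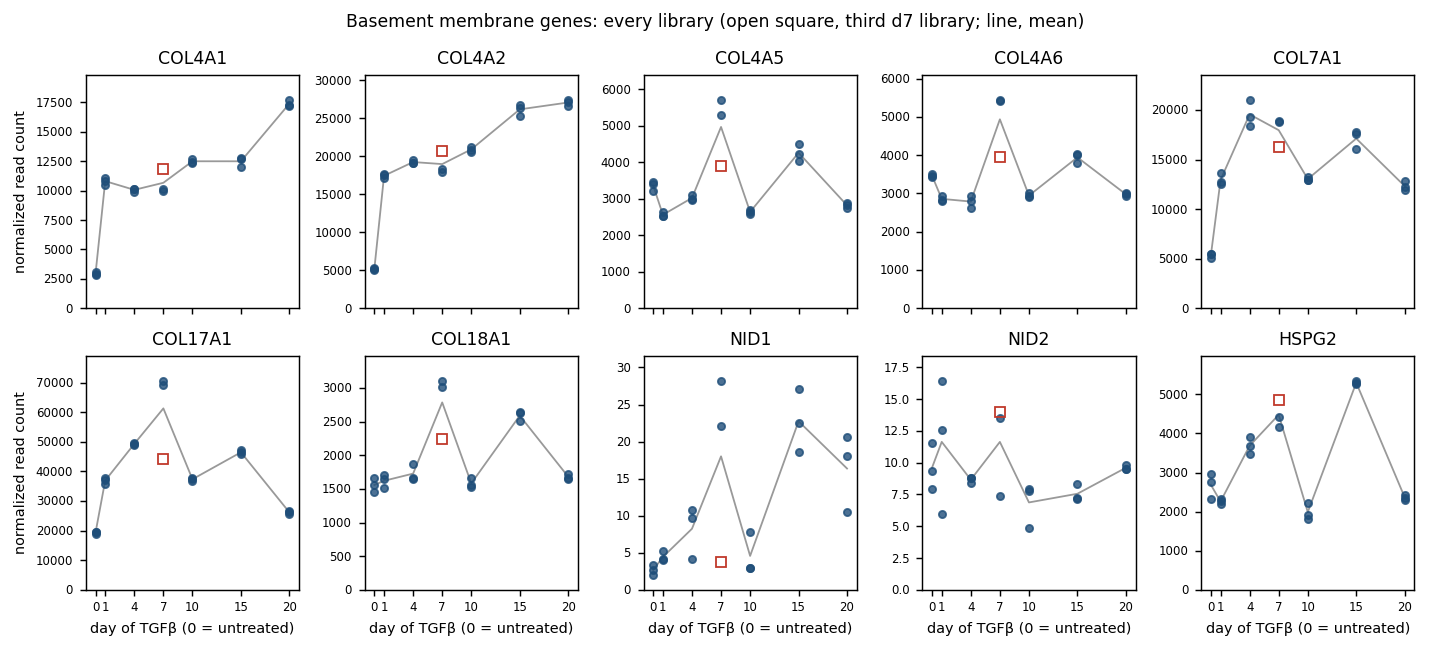
Normalized read count of each of the 10 genes (vertical axes, each from 0) against day of TGFβ (0 = untreated). Each point is a library, the open square is the third d7 library and the line joins the means of 3; COL4A1 and COL4A2 rise at d1 and again by d20, whereas COL17A1, COL18A1 and HSPG2 are higher at d7 and d15 than at d10 and d20.

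COL4A1 and COL4A2, the chains of the common collagen IV molecule, had the largest increases of the 9 genes apart from NID1 and were highest at d20. COL4A1 had 3049.8, 2896 and 2848 normalized reads in the untreated libraries. It reached 11068, 10858 and 10504 at d1, and 17264, 17189.7 and 17747 at d20. Every treated library lay above every untreated library. The log2 fold change was 1.88 (SE 0.05, adjusted p = 1.97e-18) at d1, between 1.78 and 2.09 from d4 to d15, and 2.57 (SE 0.05, adjusted p = 6.59e-21) at d20, a 5.94-fold ratio of means. At d7 the third library had 11869, against 10006 and 10137 in the others, and the log2 fold change against d0 was 1.86 with it and 1.78 without it. In these bulk RNA samples, more cells expressing a gene and more RNA per cell cannot be told apart.

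COL4A2 had 5203, 5266 and 5087 normalized reads at d0. It had 17625, 17164 and 17523 at d1 and 27468, 26645 and 27139.96 at d20. limma gave a log2 fold change of 1.75 (SE 0.04, adjusted p = 5.88e-19) at d1 and 2.38 (SE 0.04, adjusted p = 1.86e-21) at d20, a 5.22-fold ratio of means. The later steps of the pair fell partly on different days. From d7 to d10 both rose in limma, COL4A1 by 0.23 (adjusted p = 0.00021) and COL4A2 by 0.14 (adjusted p = 0.00437). Without the third d7 library these values were 0.31 and 0.21. From d10 to d15, COL4A2 rose by 0.32 (SE 0.04, adjusted p = 3.95e-07) while COL4A1 differed by -0.0006 (adjusted p = 0.991). From d15 to d20, COL4A1 rose by 0.48 (SE 0.05, adjusted p = 1.42e-08) while COL4A2 differed by 0.05 (adjusted p = 0.292). At this step COL4A2 passed the threshold in 1 of the alternatives, with values up to 0.15 over all of them. COL4A2 is one of the signature genes the study took from tumour cells, as are COL17A1 and COL18A1, and these libraries were used to mark which of that signature rose, so their direction here is not independent of that mark. In GENCODE v29 the annotated COL4A1 and COL4A2 genes overlap at their starts and COL4A2 also overlaps antisense genes, and the strand of the libraries is not given in the sources used here, so reads of the overlaps cannot be told apart.

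COL4A5 and COL4A6, the chains of the rarer collagen IV molecule, began at levels like those of COL4A1 and did not share its rise. COL4A5 had 3473, 3403 and 3219.5 normalized reads at d0 and 2637, 2531 and 2518 at d1. The d7 libraries had 5287, 5721 and 3903, the d10 libraries 2596, 2679.99 and 2645, and the d15 libraries 4049.8, 4496 and 4239.9. At d20 it was at 2759, 2881 and 2821. Every library of d1, d4, d10 and d20 lay below the untreated range and every library of d7 and d15 above it. COL4A5 was lower at d1 (log2 fold change -0.39, SE 0.08, adjusted p = 0.000377), d10 (-0.35, adjusted p = 0.000895) and d20 (-0.25, adjusted p = 0.0116). It was higher at d7 (0.54, adjusted p = 7.15e-06, and 0.71 without the third library) and d15 (0.34, adjusted p = 0.000927, a call lost with rescaling to the same total, at 0.18 and adjusted p = 0.0516). At d4 the value of -0.15 missed the threshold (adjusted p = 0.102), and it passed in 4 of the alternative settings.

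COL4A6 followed the same course. It had 3495, 3434 and 3459.9 normalized reads at d0, 2941, 2806 and 2826 at d1, and 5452, 5408 and 3948 at d7. It had 2927, 3004 and 2900.3 at d10, 3794, 4003 and 4029.6 at d15, and 2932, 2981 and 3019.9 at d20. The groups at d7 and d15 lay above the untreated range and all others below it. COL4A6 was lower at d1 (log2 fold change -0.28, SE 0.08, adjusted p = 0.00404), d4 (-0.31, adjusted p = 0.00105), d10 (-0.23, adjusted p = 0.0109) and d20 (-0.22, adjusted p = 0.0185). It was higher at d7 (0.50, adjusted p = 8.94e-06, and 0.65 without the third library) and d15 (0.19, adjusted p = 0.0338). The d15 call was lost in 8 of the alternatives, with adjusted p up to 0.752, and the d20 call without the first d20 library (-0.21, adjusted p = 0.0533).

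**Figure D2:**
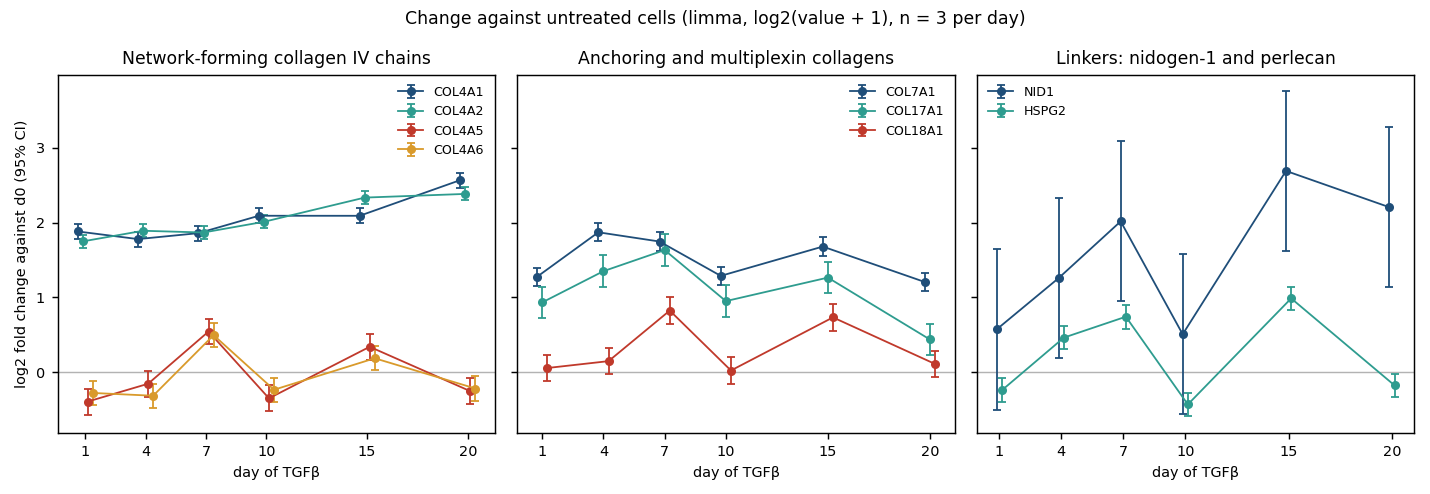
Log2 fold change against d0 (vertical axis, 95% confidence interval from limma, n = 3 per day) by day of TGFβ, in panels for collagen IV chains, anchoring collagens with COL18A1, and NID1 with HSPG2. COL4A1 and COL4A2 stay between 1.75 and 2.57, whereas COL4A5 and COL4A6 stay between -0.39 and 0.54 and cross 0.

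Set per kilobase of the longest coding transcript, the makeup of the collagen IV transcripts shifted within a day. COL4A5 and COL4A6 together made up 45.4% ± 0.10 (SD, n = 3) of the summed collagen IV level at d0 and 15.9% ± 0.16 at d1. From d4 on, in order of day, their share was 16.4% ± 0.47, 24.9% ± 4.9, 14.2% ± 0.082 and 17.3% ± 0.81, and it ended at 11.4% ± 0.25 on d20. The d7 libraries were at 27.2%, 28.2% and 19.3%, with a mean of 27.7% without the third, so no treated library reached the untreated range of 45.3% to 45.5%. The summed level rose from 2274 ± 47.3 per kilobase at d0 to 5138 ± 79.3 at d1 and 7677 ± 80.9 at d20. COL4A3 and COL4A4, the other chains of the family, had at most 5 and 8 reads in any library and were not tested.

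Within each head-to-head pair, the ratio averaged over all treated libraries lay close to the untreated ratio, while single days lay on both sides of it. On the log2(value + 1) scale the COL4A1/COL4A2 ratio was -0.82 ± 0.047 (SD, n = 3) at d0 and -0.82 ± 0.15 (n = 18) in treated libraries, a difference of 0.0059 (2-sided exact permutation p = 0.951, adjusted p = 0.951 over 4 ratios). The COL4A5/COL4A6 ratio was -0.042 ± 0.054 and -0.026 ± 0.12, a difference of 0.016 (exact permutation p = 0.826, adjusted p = 0.951). These averages join days that went opposite ways. For COL4A1/COL4A2 all libraries of d1 (difference 0.13), d10 (0.081) and d20 (0.18) lay above the untreated range and all of d4 (-0.11) and d15 (-0.24) below it. For COL4A5/COL4A6 all libraries of d4 (0.16) and d15 (0.15) lay above the untreated range and all of d1 (-0.12) and d10 (-0.11) below it. Each of these days had p = 0.1, the smallest that an exact permutation test of 3 against 3 libraries can give. Across the pairs, the COL4A1/COL4A5 ratio was -0.20 ± 0.03 (SD, n = 3) at d0 and 1.89 ± 0.53 (n = 18) in treated libraries. The difference was 2.09, higher in 18 of 18 treated libraries (exact permutation p = 0.000752, the smallest the design allows, adjusted p = 0.00301). The tests over all treated libraries take libraries of different days as replicates, though libraries of the same day lie closer together. For COL4A1/COL4A5 the SD was 0.021 within d1, against 0.53 over all treated libraries. These p-values therefore do not allow for the grouping by day. The lowest treated ratio, 0.83, was in a d7 library, and the d7 difference from untreated was 1.32, or 1.07 without the third library. Per kilobase, COL4A1 was at 0.854 ± 0.018 (SD, n = 3) of the COL4A5 level at d0 and at 6.05 ± 0.17 times that level at d20.

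**Figure D3:**
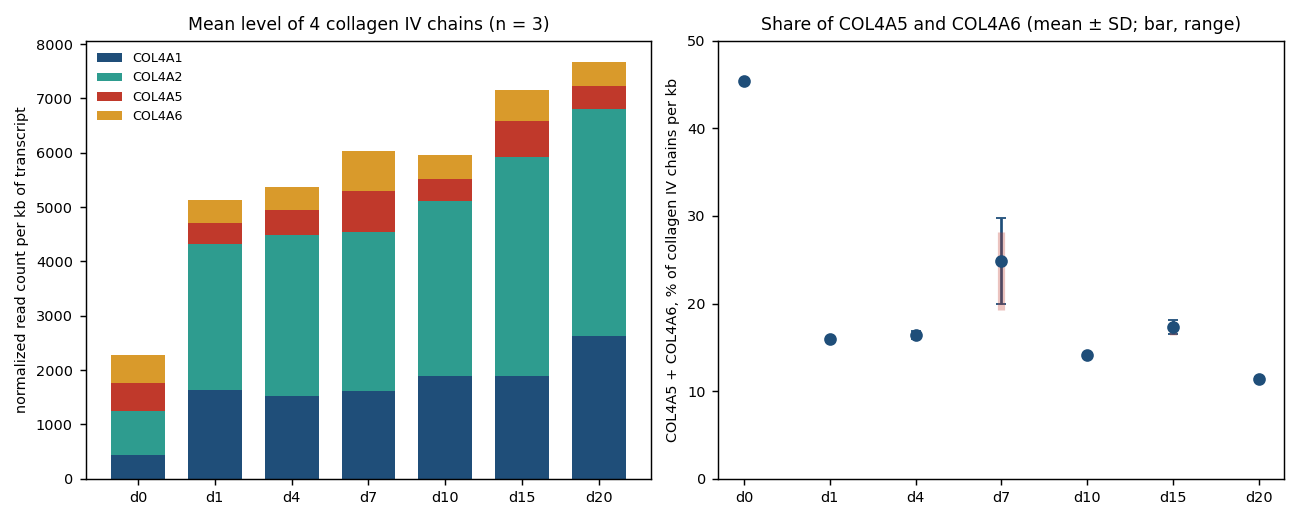
Left, mean normalized read count per kilobase of transcript for 4 collagen IV chains, stacked, by timepoint (n = 3). Right, share of COL4A5 and COL4A6 in the summed collagen IV level in percent (points and thin bars, mean ± SD; wide bars, range of 3 libraries), which goes from 45.4% at d0 to 11.4% at d20.

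COL7A1 and COL17A1, the collagens of anchoring fibrils and hemidesmosomes, were higher on every treated day and reached their highest means early, at d4 and d7. COL7A1 had 5516, 5428 and 5069 normalized reads at d0. It had 12726, 12488 and 13596 at d1 and 18329.6, 19279 and 21045 at d4. At d20 it was at 12813, 12257 and 11882. The lowest treated library lay above the highest untreated library. In log2 terms the difference from d0 was 1.28 (SE 0.06, adjusted p = 5.25e-14) at d1, 1.87 (SE 0.06, adjusted p = 4.23e-17) at d4 and 1.21 (SE 0.06, adjusted p = 9.98e-14) at d20. COL7A1 fell by 0.46 (adjusted p = 5.43e-07, and by 0.53 without the third d7 library) from d7 to d10, rose by 0.39 (adjusted p = 3.21e-06) from d10 to d15 and fell by 0.47 (adjusted p = 2.92e-07) from d15 to d20.

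COL17A1 had the highest level per kilobase of the 10 genes in untreated cells and at d20. It had 19479.9, 19577 and 18897 normalized reads at d0, 37723, 37123 and 35879 at d1, and 49440.2, 49371 and 49050.1 at d4. The d7 libraries had 70458, 69119.96 and 44217. At d20 the values were 25634, 26134 and 26734, still above all untreated libraries. Its log2 fold change was 0.93 (SE 0.10, adjusted p = 8.45e-08) at d1, 1.63 (SE 0.10, adjusted p = 8.48e-12) at d7 and 0.44 (adjusted p = 0.000835) at d20, the last of which lost its call with quantile normalization (0.16, adjusted p = 0.168). Without the third d7 library the d7 value was 1.85. The rise from d4 to d7, 0.28 (adjusted p = 0.0256), lost its call in 7 of the alternatives and was 0.50 without the third d7 library. From d15 to d20 COL17A1 fell by 0.83 (SE 0.10, adjusted p = 2.68e-07). The summed level of the 6 epithelial markers went from between 316164 and 328737 at d15 to between 215816 and 216810 at d20. Against d0, the sum and COL17A1 went different ways at d4 and d10. The sum was between 309197 and 329596 at d0 and between 249905 and 259108 at d4, while COL17A1 rose. KRT5 and KRT14 made up most of the sum, and the markers moved apart at d4. The means of KRT5 (129451 against 224349), EPCAM and CDH1 lay below d0. Those of KRT14 (97206 against 72774), TP63 and CDH3 lay above it. At d10 the sum was lowest, between 186430 and 188685, with COL17A1 still above d0 (log2 fold change 0.95). The part of that sum in the result was not tested.

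COL18A1, whose product carries the endostatin fragment, was higher at d7 and d15 only. It had 1561, 1657 and 1457 normalized reads at d0, 3100.5, 3008 and 2246 at d7, and 2503, 2636 and 2626 at d15. At d10 it was at 1661, 1561 and 1524 and at d20 at 1727, 1662 and 1654. The d7 and d15 groups lay above the untreated range, and the d10 and d20 groups overlapped it. On the log2 scale the rise was 0.82 (SE 0.08, adjusted p = 2.58e-08) at d7, 0.97 without the third d7 library, and 0.73 (SE 0.08, adjusted p = 8.14e-08) at d15. On d1, d4, d10 and d20 the values lay between 0.02 and 0.15, with adjusted p between 0.122 and 0.823. COL18A1 overlaps SLC19A1 and antisense genes, from which its reads cannot be told apart without the strand.

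HSPG2, which encodes the proteoglycan perlecan, alternated around its untreated level and took the largest steps between the later days of the genes tested apart from NID1. It had 2973, 2762 and 2319 normalized reads at d0 and 2317, 2183 and 2277 at d1. The next groups had 3476, 3673 and 3903 on d4, 4414, 4168 and 4847 on d7, and 1926, 2223 and 1814 on d10. The d15 libraries had 5335, 5292 and 5259, and the d20 libraries 2434, 2359 and 2302. The d4, d7 and d15 groups lay above the untreated range, the d1 and d10 groups below it, and the d20 group overlapped it. HSPG2 was lower at d1 (log2 fold change -0.24, SE 0.08, adjusted p = 0.00938) and d10 (-0.43, adjusted p = 3.65e-05). It was higher at d4 (0.46, adjusted p = 1.37e-05), d7 (0.74, adjusted p = 2.45e-08, and 0.68 without the third library) and d15 (0.99, SE 0.08, adjusted p = 1.24e-10). The d20 value of -0.18 (adjusted p = 0.0496) lost its call in 6 of the alternatives, with values from -0.38 to -0.10 over all of them. Without the first d0 library the d1 call was lost too (-0.16, adjusted p = 0.0825). HSPG2 shares bases with LDLRAD2, whose reads cannot be told apart where they overlap.

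Beside the d7 and d15 values of COL4A5, COL4A6, COL18A1 and HSPG2, the summed level of the 5 pericyte markers ran from 1909 to 5092 at d7 and from 3307 to 3481 at d15, against 2267 to 2426 at d0, 634 to 714 at d10 and 1197 to 1286 at d20. The 5 endothelial markers summed to between 274.5 and 290.7 at d15, mostly KDR with a mean of 263, and to between 29.2 and 40.1 at d10. On d10 KDR had a mean of 2.94 and PECAM1, at 14.7, was the highest of the 5. The defining marker CDH5 had at most 3 reads in every library. The 5 haematopoietic markers summed to between 637 and 767 at d15 and between 83.6 and 92.6 at d10, mostly LAPTM5 with means of 675 and 79.2, while PTPRC had at most 3 reads in every library. The pericyte sum joined markers that moved apart. NOTCH3 had a mean of 2013 in untreated cells, which was 78.5 on d10 and 246 on d20. CSPG4 had a mean of 196 in untreated cells and was higher on every treated day, with its lowest treated mean, 494, on d10. On d7 NOTCH3 had a mean of 2072 and CSPG4 1654, and on d15 CSPG4 was the larger, with 1856 beside 1281. RGS5, PDGFRB and ABCC9 had means of 58.4, 30.5 and 40.8 at d0. Their means were 49.5, 37.8 and 40.4 at d7 and 80.3, 127.7 and 38.2 at d15. At d4, where HSPG2 was also higher, the pericyte sum ran from 1950 to 2032, below its d0 range. The part of the pericyte markers in the d7 and d15 values of COL4A5, COL4A6, COL18A1 and HSPG2 was not tested.

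The nidogens were scarcely transcribed. NID1 had 3, 4 and 2 reads in the untreated libraries, 5, 4 and 4 at d1 and 4, 10 and 11 at d4. Read counts of 21, 27 and 4 followed on d7, of 3, 3 and 8 on d10, of 22, 30 and 18 on d15, and of 17, 10 and 21 on d20. All libraries of d15 and d20 lay above the untreated libraries, and the d1, d4, d7 and d10 groups each held a library of at most 4 reads. The log2 fold change was 2.69 (SE 0.51, adjusted p = 7.25e-05) at d15 and 2.21 (SE 0.51, adjusted p = 0.000841) at d20. NID1 passed the filter through d7, d15 and d20, so its p-values on those days are not independent of the filter. Pooled reads went from 9 at d0 to 70 at d15, a normalized ratio of 8.45 with an exact 95% interval from 4.20 to 19.2, and to 48 at d20, a ratio of 6.06 with an interval from 2.94 to 14.1. These intervals cover counting error only. At d7 the log2 fold change was 2.02 (adjusted p = 0.00167) and 2.84 without the third library, and at d4 it was 1.26 (adjusted p = 0.0337), a call lost in 8 of the alternatives.

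NID2 had between 5 and 16 reads in every library and was not tested. Its normalized counts were 11.6, 9.33 and 7.92 at d0 and 9.54, 9.47 and 9.79 at d20. Its pooled ratio to d0 ran from 0.711 at d10 to 1.22 at d7, each with an interval that included 1, so a change was not detectable at this depth. The NID1/NID2 ratio rose by 1.62 on the log2(value + 1) scale between untreated and treated libraries (exact permutation p = 0.0248, adjusted p = 0.0496). This p also takes libraries of different days as replicates. The ratio missed the threshold with a pseudocount of 10 (difference 0.75, adjusted p = 0.117). Leaving out a single library ended the call for 15 of the 21 libraries, with differences from 1.497 to 1.768. Reads of NID2 and of RTRAF cannot be told apart where they overlap.

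**Figure D4:**
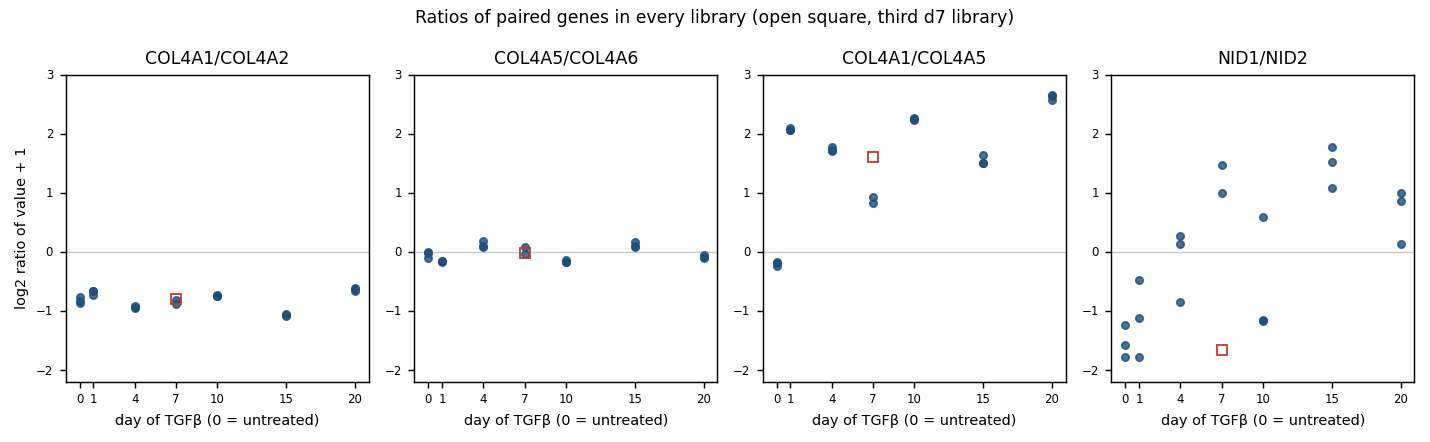
Log2 ratio of value + 1 for 4 pairs of genes (vertical axis) against day of TGFβ (0 = untreated), with each point a library and the open square the third d7 library. The 2 head-to-head pairs lie above their untreated ratio on some days and below it on others, by at most 0.24 in the mean of a day, COL4A1/COL4A5 is higher in all 18 treated libraries, and NID1/NID2 has its widest spread at d7 (SD 1.69).

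COL17A1 led the order of levels per kilobase at both ends of the course. At d0 the order was COL17A1 (3396 ± 64.6, SD, n = 3), COL4A2 (799 ± 13.98), COL7A1 (575 ± 25.5), COL4A5 (519 ± 20.2), COL4A6 (513 ± 4.5), COL4A1 (443 ± 15.9), COL18A1 (237 ± 15.1), HSPG2 (187 ± 23.3), NID2 (2.00 ± 0.38) and NID1 (0.457 ± 0.12). Only COL4A5 and COL4A6 had overlapping ranges among neighbours. By d20, COL4A1 (2630.02 ± 45.8) had moved from the sixth to the third place, behind COL17A1 (4600 ± 96.8) and COL4A2 (4171 ± 63.8). COL4A5 and COL4A6, at 435 ± 9.4 and 441 ± 6.5, again overlapped, as did NID1 and NID2 at 2.79 ± 0.89 and 2.00 ± 0.035.

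The genes with the most similar time courses were sought by the root-mean-square distance between centred log2 means over the 7 timepoints, among 13342 other genes. COL4A1 and COL4A2 were the nearest gene to each other, at 0.136, followed by GAB3 and FAM101B for COL4A1 and by FEZ1 and L1CAM for COL4A2. COL4A5 and COL4A6 were the fourth nearest to each other, at 0.106. The nearest to COL4A5 were FAM46B, IL11RA and PKP1, a desmosomal plaque protein, and the nearest to COL4A6 were C9orf43, VPS13B and RABL2A. COL7A1 was nearest to GPX7, PHLDB1 and BMP1, a protease that cleaves procollagens, at 0.088 to 0.123. COL17A1 was nearest to the secreted protease HTRA1 and to RTN2 and WDR91. COL18A1 was nearest to the interferon regulatory factor IRF7 and to KDM4B and C10orf26, HSPG2 to SLC27A1, DNAJC4 and RETSAT, and NID1 to MYL9, a myosin light chain, LOC375190 and SLC22A17. With 7 points that share libraries, these distances are descriptions only.

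Genes that assemble, bind or cut the basement membrane were counted in 5 lists. The lists were also chosen with earlier results of these data known, so their counts are descriptions. Of 12 tested among the other basement membrane components, 8 were higher and 1 lower at d1 (31.3% and 28.5% of all genes tested) and 8 higher and 2 lower at d20 (32.5% and 30.2%), with a list median of 0.96 at d20. The same shares stand beside the counts of the other lists. The guidance protein netrin-1, NTN1, rose from 22.4 ± 4.9 to 140 ± 7.0 (SD, n = 3; log2 fold change 2.61, SE 0.18, adjusted p = 6.43e-11). FRAS1, which links epithelium to the underlying matrix, fell from 127 ± 5.6 to 55.4 ± 7.1 (log2 fold change -1.19, adjusted p = 2.18e-07). Of 9 laminin chains, 5 were higher and 2 lower at d1 and 6 higher and 2 lower at d20, with the counts of lower chains not above the background of 28.5% and 30.2%. LAMA5, a laminin alpha chain of many epithelia, fell by 0.71 at d20 (SE 0.06, adjusted p = 8.62e-10).

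Among 21 tested genes of collagen folding, hydroxylation and crosslinking, 17 were higher and 1 lower at d1, and 21 were higher and 0 lower at d20, with a list median of 0.57 against 0.00 over all genes tested. The count of 0 lower genes at d20 was also 0 at an unadjusted limma p under 0.05, with edgeR and with DESeq2. The transglutaminase TGM2 rose from 231 ± 14.9 to 24002 ± 259 at d1 and 11203 ± 393 at d20 (log2 fold change 5.59, SE 0.09, adjusted p = 4.86e-22). PXDN, the peroxidase that crosslinks collagen IV, named here after its values were seen, rose by 2.08 (adjusted p = 2.55e-18). Of 16 receptors and hemidesmosome partners, 10 were higher and 3 lower at d1 and 11 higher and 4 lower at d20, with the counts of lower genes below the background of 28.5% and 30.2%. ITGB4, the integrin subunit of the hemidesmosome, rose from 12714 ± 150.1 to 40628 ± 963 (log2 fold change 1.68, SE 0.06, adjusted p = 1.94e-15). BCAM, a laminin receptor, fell from 4321 ± 168 to 916 ± 75.6 (log2 fold change -2.24, SE 0.13, adjusted p = 1.55e-12). Of 13 proteases and processing enzymes, 11 were higher and 0 lower at both days, with list medians of 1.15 and 0.97, and 0 were lower at an unadjusted limma p under 0.05, with edgeR or with DESeq2. MMP9, a gelatinase that cleaves collagen IV, rose from 39.8 ± 6.5 to 2805 ± 166 at d20 (log2 fold change 6.11, SE 0.23, adjusted p = 1.55e-15).

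**Figure D5:**
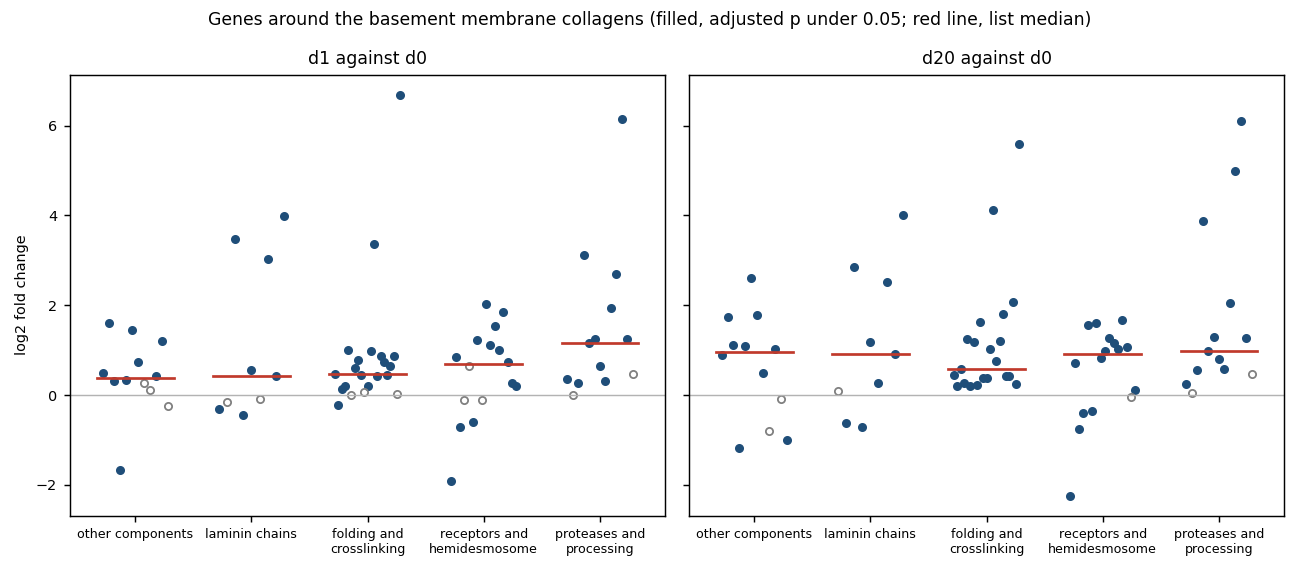
Log2 fold change against d0 (vertical axis) at d1 and d20 for each tested gene of 5 lists, filled where the adjusted p was under 0.05 and open otherwise, with the list median as a red line. All 21 folding and crosslinking genes lie above 0 at d20, and the medians of the 5 lists lie between 0.57 and 0.97.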

How the data were processed

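RNA-seq of HMLE cells was analysed in 21 libraries. The authors deposited a normalized signal, the reads of each gene divided by a size factor per library and rounded to 2 decimals. The submitters' processing notes name STAR 2.7, Salmon 1.4 and hg19; the counting step, annotation and strand are not given in the sources used here. Dividing by the value of 1 read gave whole reads within 0.1 read for 100% of values up to 1000 reads. Column names carry no replicate numbers, and the libraries of a group were named in column order. The study calls them biological triplicates, and nothing in the labels says whether cultures were separate, so p-values measure only the spread between these libraries.

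Genes with a mean of at least 10 entered a linear model of log2(value + 1) with 1 mean per timepoint (limma 3.58.1, run under R 4.3.3, with a mean-variance trend in eBayes), and p-values were adjusted by Benjamini-Hochberg over 13343 genes within each contrast (threshold 0.05). A log2 fold change on this scale understates low genes. Ratios were compared by 2-sided exact permutation tests, in which libraries of different treated days counted as replicates of the treated group. At most 3 reads counted as the floor. Alternatives were a pseudocount of 10, no filter, rescaling to the same total, quantile normalization, only both groups compared, edgeR 4.0.16 and DESeq2 1.42.0 on recovered reads, a minimum log2 change of 1, and leaving out each library. The fit was also run on simulated data, whose outcome is not used here. Those data had the same variability for every gene, few changed genes, all at d20, and no outlying library, unlike these libraries. Lengths came from GENCODE v29 and promoters from RefSeq. The members and lists were chosen with earlier results of these data known. Named list genes are those with the largest increase and the largest decrease at d20 among the called, and the nearest genes are the first 3 by distance; 1 gene the rule names is not reported here. Figures were drawn with matplotlib.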

Additional observations from a re-analysis of the deposited data

Results flagged for a closer look

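Members called in opposite directions against d0 on neighbouring treated days, with the step between these days itself past the threshold, were flagged as differing between groups. HSPG2 met this at 4 steps, with log2 differences of 0.70 from d1 to d4, -1.17 from d7 to d10, 1.42 from d10 to d15 and -1.16 from d15 to d20. COL4A6 met it at 4 steps, with 0.81 from d4 to d7, -0.73 from d7 to d10, 0.42 from d10 to d15 and -0.40 from d15 to d20. COL4A5 met it at 3 steps, with -0.89 from d7 to d10, 0.69 from d10 to d15 and -0.59 from d15 to d20. Without the third d7 library the COL4A6 value from d4 to d7 was 0.96, and the d7 to d10 values were -1.11 for HSPG2, -0.88 for COL4A6 and -1.06 for COL4A5. Some of these flags rest on calls against d0 that were lost in alternatives. HSPG2 at d20 lost its call in 6 of them and COL4A6 at d15 in 8. HSPG2 at d1, COL4A6 at d20 and COL4A5 at d15 lost theirs in 1 each. The share of all genes tested that met this rule was not counted, so the flags are not shown to be particular to these genes. No test for an outlying library was run gene by gene within groups of 3.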

How the results depend on the processing

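Leaving the processing as described or changing 1 choice gave 2342 alternative values for 177 results, of which 2137 left the sign and the call as they were or, for counts, stayed within 1.5 times. No paired analysis was possible because replicate numbers are missing from the column names. The sign of no value that passed the threshold turned under any alternative run. The causes of the differences below were not tested, except that a minimum fold change calls fewer genes by construction.

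With a minimum absolute log2 change of 1, the count of lower genes among the 9 was 0 at d1, d4, d10 and d20, and the count of higher genes was 5 at d7 and 5 at d15. Between days it gave 0 higher for d4 against d1, 0 for d7 against d4, 0 for d10 against d7 and 0 for d20 against d15, 2 higher for d15 against d10, 2 lower for d10 against d7 and 1 lower for d20 against d15. In the lists it gave 3 other components higher at d1 and 1 lower at d20, 3 laminin chains higher at d1 with 0 lower at d1 and d20, 3 and 9 folding genes higher at d1 and d20 with 0 lower at d1, 6 and 7 receptors higher with 1 and 1 lower, and 7 and 6 proteases higher.

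At d4 the count of lower genes was 2 with rescaling to the same total, with quantile normalization, with only both groups fitted and with edgeR, against 1 as reported. For d4 against d1 it was 1 with only both groups fitted and with edgeR. Higher genes numbered 1 for d10 against d7 with only both groups fitted and 2 for d20 against d15 with quantile normalization. Rescaling gave 2 other components, 5 folding genes, 5 receptors and 1 protease lower at d1, and 1 protease lower at d20. Fitting only both groups gave 2 other components lower at d1, quantile normalization 3 folding genes lower at d1, and no filter 4 other components lower at d20.

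Values below the threshold that changed sign were few. COL4A1 for d15 against d10 became 0.067 with rescaling, 0.057 with quantile normalization, 0.016 with edgeR and 0.013 with DESeq2, and ran from -0.017 to 0.026 with a library left out. COL4A6 for d4 against d1 became 0.011 with quantile normalization and ran from -0.078 to 0.0072 with a library left out. COL4A2 for d7 against d4 ran from -0.087 to 0.018 with a library left out. COL18A1 became -0.14 at d1, -0.049 at d4, -0.20 at d10 (adjusted p = 0.035) and -0.089 at d20 with rescaling. With quantile normalization it became -0.046 at d1 and -0.12 at d10, with edgeR -0.017 at d10, and it ran from -0.024 to 0.068 at d10 with a library left out. NID1 at d1 became -0.12 with quantile normalization.

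Leaving out 1 library gave between 1 and 3 lower genes at d20 (1 without the first d20 library), between 0 and 1 for d7 against d4, and between 1 and 2 lower laminin chains at d20. The treated against untreated difference ran from -0.014 to 0.032 for COL4A1/COL4A2, from -0.015 to 0.033 for COL4A5/COL4A6 and from 1.497 to 1.768 for NID1/NID2, which was 0.75 with a pseudocount of 10.

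With between 18847917 and 22667754 reads, no library held more than 30 reads of NID1 or 16 of NID2, so small changes of these genes could not be seen.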
